A study of Mus musculus with 4 samples.

Results

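Müller glia that carried transcripts of the antiviral genes Rsad2, Ifit1 and Ifit3 made up 148 of the 3459 Müller glia among 26543 retinal cells of 4 single-cell RNA-seq libraries. A cell was taken as a Müller cell when Rlbp1, the retinal-binding protein of Müller glia, was above 0 together with at least 3 of 7 further Müller genes (Slc1a3, Aqp4, Sox9, Dkk3, Car14, Abca8a and Kcnj10). The antiviral cells were selected on their own transcripts, as those in which Rsad2, Ifit1 and Ifit3 summed to 5 or more UMIs (unique molecular identifiers, 1 per captured transcript) per 10000 UMIs of the cell. There were 76 such cells in the rolipram library, 4 in the BC11-38 library, 53 in the bleached vehicle library and 15 in the unbleached vehicle library. These 3 transcripts chose the cells, so their levels in the cells and every contrast of the cells with other Müller glia are descriptions without a test.

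All mice were Abca4-/-Rdh8-/- on C57BL/6J and 6 weeks of age, and lacked a transporter and a dehydrogenase that help to clear all-trans-retinal from photoreceptors. The rolipram group was injected with rolipram (2 mg/kg), which inhibits phosphodiesterase 4, and the BC11-38 group with BC11-38 (2 mg/kg), which inhibits phosphodiesterase 11, both in DMSO before white light of 10000 lux for 30 min. The bleached vehicle group had DMSO and the same light, retinae of these 3 groups were taken on day 1, and the unbleached vehicle group had DMSO without bleaching. Each library pooled 4 retinae of 2 mice, so there was 1 library per group, no value has a replicate, and no test across samples was possible. Dark adaptation and dilated pupils are recorded for the light exposure and not separately for the unbleached group. Abca4 and Rdh8 are absent in the controls too, so no comparison here bears on the genotype.

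Müller glia span the whole retina, take up glutamate, handle potassium and water, and recycle chromophore. Type I interferon acts through its receptor and the kinases JAK1 and TYK2 on transcription factors that include STAT2 and IRF9 and bind interferon-stimulated response elements in the promoters of antiviral genes. Of the 3 rule genes, Rsad2 encodes viperin, an enzyme whose nucleotide product stops viral RNA synthesis, Ifit1 binds RNA with foreign 5′ ends, and Ifit3 is a partner of IFIT1 in human cells.

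The 3 rule genes carried matches to the response element in their promoters, which are shown with those of Isg15 and Cxcl10, a ubiquitin-like modifier and a chemokine that results below turn on. The sequences are from RefSeq on build GRCm38.p6, read 5′ to 3′ on the strand of the gene, from 250 bases before to 50 bases after the start. They lie at chr12:26456403-26456702 on the minus strand for Rsad2, chr19:34640639-34640938 on the plus strand for Ifit1, chr19:34583279-34583578 on the plus strand for Ifit3, chr4:156200769-156201068 on the minus strand for Isg15 and chr5:92348840-92349139 on the minus strand for Cxcl10. Capitals mark every match to GAAANNGAAA or its reverse complement TTTCNNTTTC.

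Rsad2: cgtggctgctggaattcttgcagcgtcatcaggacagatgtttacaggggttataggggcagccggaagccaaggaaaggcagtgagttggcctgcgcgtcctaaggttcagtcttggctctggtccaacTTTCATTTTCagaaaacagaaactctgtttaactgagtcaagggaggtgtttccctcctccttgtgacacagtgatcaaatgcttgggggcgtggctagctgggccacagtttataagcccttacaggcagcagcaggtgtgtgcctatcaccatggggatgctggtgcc

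Ifit1: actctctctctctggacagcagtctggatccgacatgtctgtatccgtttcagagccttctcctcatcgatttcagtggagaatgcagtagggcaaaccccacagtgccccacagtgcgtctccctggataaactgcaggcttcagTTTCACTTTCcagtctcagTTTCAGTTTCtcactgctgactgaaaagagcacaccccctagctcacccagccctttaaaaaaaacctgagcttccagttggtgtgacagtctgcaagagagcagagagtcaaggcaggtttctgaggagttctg

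Ifit3: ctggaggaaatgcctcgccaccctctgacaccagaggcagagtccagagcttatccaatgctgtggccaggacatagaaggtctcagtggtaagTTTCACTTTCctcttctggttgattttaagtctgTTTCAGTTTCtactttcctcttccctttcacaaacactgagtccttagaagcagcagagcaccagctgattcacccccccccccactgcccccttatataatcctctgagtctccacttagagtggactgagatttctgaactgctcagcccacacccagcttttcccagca

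Isg15: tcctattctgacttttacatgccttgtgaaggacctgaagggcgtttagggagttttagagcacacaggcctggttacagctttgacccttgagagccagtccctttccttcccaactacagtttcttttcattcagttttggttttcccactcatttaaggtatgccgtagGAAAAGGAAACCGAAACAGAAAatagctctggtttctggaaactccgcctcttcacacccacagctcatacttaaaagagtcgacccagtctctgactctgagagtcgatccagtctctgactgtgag

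Cxcl10: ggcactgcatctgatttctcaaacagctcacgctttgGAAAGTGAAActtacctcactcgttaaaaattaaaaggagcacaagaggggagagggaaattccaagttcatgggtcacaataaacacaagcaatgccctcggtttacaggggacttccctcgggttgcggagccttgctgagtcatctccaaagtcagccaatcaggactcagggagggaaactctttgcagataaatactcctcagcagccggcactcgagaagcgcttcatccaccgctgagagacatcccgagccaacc

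Rsad2 had 1 match, which began 120 bases before the start, Ifit1 had 2 at 104 and 85 bases, and Ifit3 had 2 at 156 and 122 bases. Isg15 had 3 overlapping matches at 78, 72 and 66 bases, and Cxcl10 had 1 at 213 bases. Of the 16 genes with a promoter in the table among the 20 named below, 10 held a match (62.5%). Of the 172 genes that were at least 2-fold higher in antiviral than in other Müller glia, 137 had a promoter there (79.7%), and 44 of these held a match (32.1%). Fewer than 80% of that set had a promoter, so its share is void as a check and is given as a count of what was found. Of all 27025 genes with a promoter of the same length, 1079 held a match in at least 1 promoter (3.99%). Of the 11420 genes compared in Müller glia, 8994 had a promoter there (78.8%), also under 80%, and 317 of these held a match (3.52%). A match is a description of these letters and not a measured site. By the gene models of build mm10, Rsad2 lies on chromosome 12 at 26442746 to 26456452 and Ifit1 and Ifit3 on chromosome 19 at 34640871 to 34650009 and 34583531 to 34588731. Ifit2 and Ifit3b lie in the same stretch of chromosome 19, at 34550694 to 34576419 and 34607970 to 34613401.

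Libraries differed in ways that touch the results. The rolipram, BC11-38, bleached vehicle and unbleached vehicle libraries held 7894, 6143, 6809 and 5697 cells, with 31544696, 28983626, 44386442 and 35495396 UMIs. Xist, the X-inactivation RNA of female cells, was seen in 52.7%, 53.4%, 0.362% and 48.9% of the Müller glia below the cut in these libraries, so every ratio to bleached vehicle sets libraries of different sex make-up side by side. Of 26451 distinct barcodes 92 occurred in more than 1 library, and 2 antiviral cells carried such a barcode. The cell class markers of microglia, summed over whole libraries, stood at 242, 15.5, 255 and 168 CPM (UMIs of the genes, scaled to the UMI total of the cells) in rolipram, BC11-38, bleached vehicle and unbleached vehicle. How reads shared by near-identical genes were counted is not given in the sources used here, so values of Ifit3 and Ifit3b, of the Gbp, Slfn, Ifi203 and Apol9 families and of the H2-Q and H2-T genes are uncertain as to the copy.

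The antiviral cells carried Müller markers at summed levels close to those of the other Müller glia. All 12 Müller markers were seen in the antiviral cells of every library, and their summed level was 36236, 43610, 18424 and 32522 CPM in the antiviral cells of rolipram, BC11-38, bleached vehicle and unbleached vehicle, against 39364, 45154, 20236 and 31621 CPM in the other Müller glia. Rlbp1 and the 7 further gate genes are among these 12, so in both groups their presence followed from the gate. Glul, Apoe, Dbi and Clu, which the gate did not use, had mean log2 ratios of antiviral over other cells of -0.34, -0.24, 0.05 and 0.02 in rolipram and bleached vehicle. In unbleached vehicle Rlbp1 stood at 876 CPM in antiviral and 1450.5 CPM in other Müller glia. Abca8a was seen there in 73.3% of antiviral and 95.8% of other cells. Cldn5, Cdh5, Tie1 and Ly6c1, which define endothelium, were at 0 in the antiviral cells of all 4 libraries. The whole endothelial list of 8 genes summed to 1428, 1962, 1285 and 1044 CPM in antiviral and 1404, 1604, 1311 and 1320 CPM in other Müller glia, with 2, 2, 4 and 3 of its genes seen in the antiviral cells. Of the microglial markers Cx3cr1, Csf1r, C1qb, C1qc and Ptprc were at 0 in the antiviral cells of all libraries. The whole microglial list of 13 genes summed to 27.7, 59.5, 21.5 and 39.4 CPM in antiviral and 24.2, 28.6, 74.1 and 34.8 CPM in other Müller glia. Of its genes 3, 2, 2 and 2 were seen in the antiviral cells. The astrocyte list summed to 734, 208, 1199 and 5666 CPM in antiviral and 619, 240, 1109 and 902 CPM in other Müller glia. Its sum was thus high in the antiviral cells of the unbleached library. On the per-cell scale of the cut, its median there was 2.91 in antiviral and 2.52 in other Müller glia. The highest cells stood at 171 and 250. Pericyte markers in that library summed to 1339 CPM against 124 CPM. Their per-cell medians were 0 in antiviral and 0.464 in other Müller glia, with highest cells at 40.9 and 43.5. Neither high sum thus describes the typical antiviral cell of that library. The part of either list in the values of that library was not tested.

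The antiviral cells were most frequent among Müller glia of the rolipram library and rarest in the BC11-38 library. Their share was 6.47% in rolipram (exact 95% Clopper-Pearson interval 5.13 to 8.04%), 0.678% in BC11-38 (0.185 to 1.73%), 4.58% in bleached vehicle (3.45 to 5.95%) and 2.79% in unbleached vehicle (1.57 to 4.56%). The BC11-38 interval did not reach those of rolipram and bleached vehicle and overlapped that of unbleached vehicle, while the rolipram and bleached vehicle intervals overlapped, as did those of bleached and unbleached vehicle. All intervals cover counting error only and hold no variation between mice. As shares of all cells the same groups stood at 0.963%, 0.0651%, 0.778% and 0.263%.

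**Figure D1:**
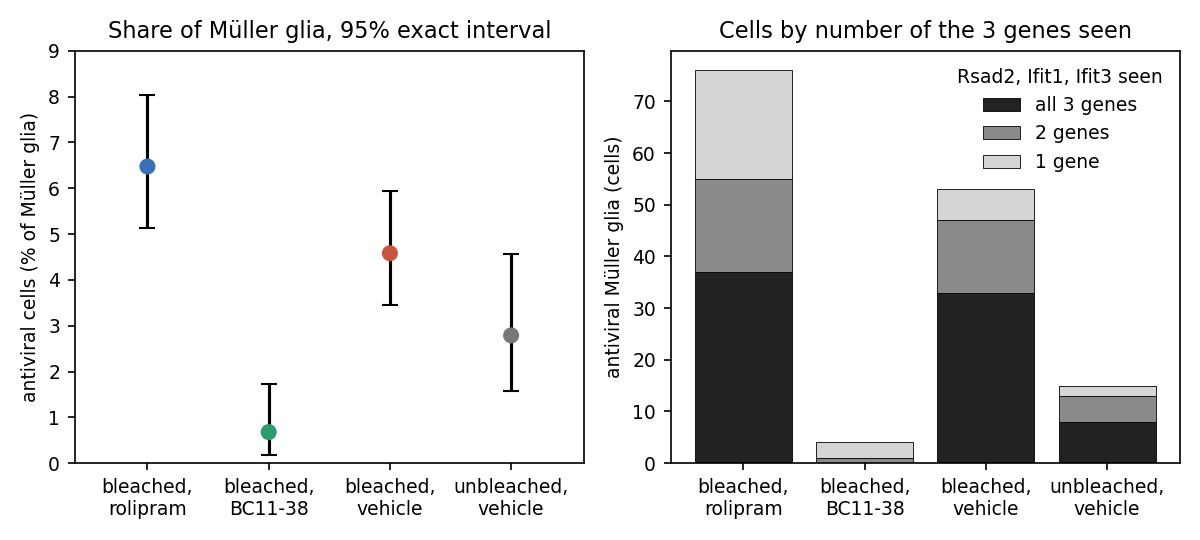
Left, share of Müller glia that were antiviral in each library (percent, points with exact 95% intervals); right, number of antiviral cells by how many of Rsad2, Ifit1 and Ifit3 were seen in them (stacked bars, cells). BC11-38 is lowest at 0.678% and has 0 cells with all 3 genes, against 37 in rolipram, 33 in bleached vehicle and 8 in unbleached vehicle.

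The place of rolipram depended on how a cell was called. Under 14 ways of calling, this one included, BC11-38 was lowest in 14 and bleached vehicle was above unbleached vehicle in 14. Rolipram was above bleached vehicle in 11 and below it in 3. Cells that held at least 2 UMIs of the 3 genes, whatever their depth, were 12.4% of Müller glia in rolipram, 5.93% in BC11-38, 21.9% in bleached vehicle and 17.1% in unbleached vehicle. Depth moved with that count, since other Müller glia had a median of 5657.5, 6921, 16306.5 and 12417 UMIs. With every Müller cell thinned to 2000 UMIs, cells with at least 2 UMIs of the 3 genes were 5.41%, 1.05%, 4.30% and 3.42%, which leaves the order of the first rule.

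The cut at 5 per 10000 split a continuous range. Just inside it, at 5 to 6 per 10000, lay 22 cells with a median of 3 UMIs of the 3 genes, 14 of them with 1 gene seen. Just outside it, at 4 to 5 per 10000, lay 30 cells with a median of 4 UMIs, 19 of them with 1 gene seen. The lowest antiviral cells stood at 5.01, 5.25, 5.30 and 5.16 per 10000 in rolipram, BC11-38, bleached vehicle and unbleached vehicle, and the highest cells outside the cut at 4.87, 4.71, 4.92 and 4.98. In the rolipram library 4 antiviral cells rested on 1 UMI.

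Levels differed widely between antiviral cells of 1 library. The summed level of the 3 genes per cell had a lowest, median and highest value of 5.01, 16.65 and 199 per 10000 in rolipram, 5.25, 8.64 and 10.4 in BC11-38, 5.30, 13.7 and 288 in bleached vehicle, and 5.16, 26.3 and 112 in unbleached vehicle. The 4 BC11-38 cells thus all lay in the lower part of the range. A few cells held many of the UMIs, the top 5 cells with 39.0%, 51.2% and 80.6% of them in rolipram, bleached vehicle and unbleached vehicle. Rsad2 stood at 1161, 238, 1224 and 645 CPM in antiviral cells of rolipram, BC11-38, bleached vehicle and unbleached vehicle, against 1.78, 1.70, 6.03 and 2.32 CPM in other Müller glia. Ifit1 stood at 1306, 119, 641 and 916 CPM in antiviral and 5.34, 0.485, 4.52 and 3.003 CPM in other Müller glia. Ifit3 stood at 1867, 446, 1636 and 1994 CPM in antiviral and 56.1, 44.1, 37.9 and 41.9 CPM in other Müller glia. Ifit3 was thus the rule gene that the other Müller glia also held, in 27.6%, 25.9%, 37.8% and 35.8% of those cells.

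**Figure D2:**
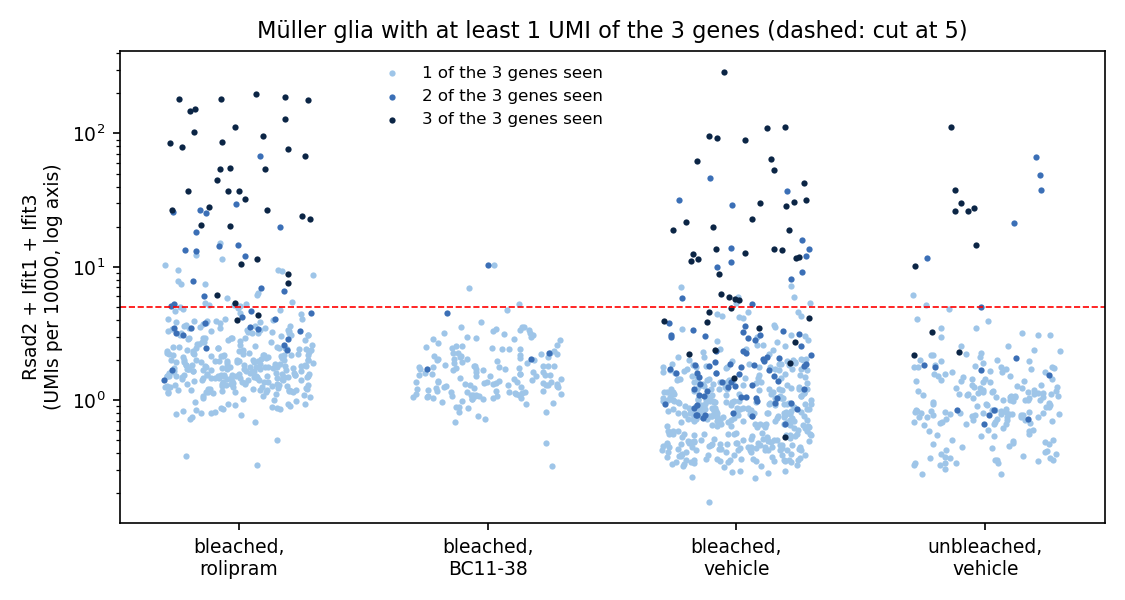
Each point is a Müller cell with at least 1 UMI of Rsad2, Ifit1 or Ifit3, by library (x axis) and by their summed level in UMIs per 10000 (log axis); colour gives how many of the 3 genes were seen and the dashed line is the cut at 5. Points run through the cut without a gap, and cells with 3 genes lie mostly above it.

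Antiviral cells with more rule genes held more of the other antiviral transcripts in rolipram and bleached vehicle, and not so in unbleached vehicle. Cells with all 3 rule genes were 37 of 76 antiviral cells in rolipram (48.7%), 0 of 4 in BC11-38, 33 of 53 in bleached vehicle (62.3%) and 8 of 15 in unbleached vehicle (53.3%). Of 54 further antiviral effector genes, none of them part of the rule, the median number seen per cell in rolipram was 19 in cells with 3 rule genes, 10.5 with 2, 3 with 1 and 2 in other Müller glia. In bleached vehicle the medians were 26, 16, 13 and 7. In unbleached vehicle they were 17, 21, 9.5 and 6, so cells with 2 rule genes (5 cells) were above those with 3 (8 cells). In BC11-38 the 1 cell with 2 rule genes had 12 effectors, the 3 cells with 1 a median of 5 and the other Müller glia a median of 2. With cells thinned to 2000 UMIs the medians for 3, 2 and 1 rule genes and other Müller glia were 11, 5, 3 and 1 in rolipram, 8, 6, 5 and 1 in bleached vehicle, and 8.5, 9, 3.5 and 1 in unbleached vehicle. In each library these medians lay above that of the other Müller glia at every number of rule genes. The 1-gene cells were 21 in rolipram, 3 in BC11-38, 6 in bleached vehicle and 2 in unbleached vehicle, and in 19, 2, 6 and 1 of them the gene was Ifit3. No effector count of these groups was tested, since the rule and the effectors were read in the same cells.

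Antiviral cells held more of many listed and unlisted transcripts than the other Müller glia of the same libraries. The ratio of antiviral to other Müller glia was taken within rolipram and within bleached vehicle, the libraries with at least 20 antiviral cells, and averaged on the log2 scale. Of 11420 genes compared, 172 were at least 2-fold higher in the antiviral cells with the same direction in both libraries (1.51%), and 391 were at least 2-fold lower (3.42%). Of the 172, 75 were on the gene lists described below or were among the 3 rule genes, and 97 were neither. Genes entered with at least 5 UMIs expected in the antiviral cells at the level of all Müller glia, the antiviral cells included, so a gene could enter through its level in the antiviral cells alone. With entry by the other Müller glia alone, tried once the values were known, 154 of 11414 genes were higher (1.35%) and 391 lower (3.43%).

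Low counts made up most of the lower genes. Of the 391, 328 had under 20 expected UMIs, 60 had 20 to 100 and 3 had 100 or more, while of the 172 higher genes 80, 81 and 11 fell in these ranges. The 11 higher genes with 100 or more expected UMIs, named after their values were seen, were Ifit3, Bst2, Oasl2, Ifitm3, H2-D1, B2m, Clec2d, Tspo, H2-K1, Tapbp and March5. Tspo, a mitochondrial membrane protein used as a marker of reactive glia, stood at 265, 59.5, 495 and 364 CPM in antiviral cells of rolipram, BC11-38, bleached vehicle and unbleached vehicle, and 114, 103, 183 and 153 CPM in other Müller glia. The 3 lower genes in this range were Xist, Glycam1 and Hes5. Xist stood at 775, 1784, 0 and 527 CPM in antiviral and 1550, 1367, 0.215 and 726 CPM in other Müller glia. It was thus higher in the antiviral cells of BC11-38 and nearly absent in bleached vehicle. Glycam1 was seen in 1 antiviral cell of rolipram and 1 of bleached vehicle. In unbleached vehicle it was higher in the antiviral cells, at 256 against 25.5 CPM. Hes5, a Notch target, stood at 113, 327, 58.0 and 458 CPM in antiviral and 469, 735, 109 and 293 CPM in other Müller glia, so it was higher in the antiviral cells of the unbleached library. In bleached vehicle 1 antiviral cell held 68.5% of its UMIs. The astrocyte marker Pax2 was among the 97 higher genes on no pathway list, with a mean log2 ratio of 1.42, and without the cells that held both Pax2 and S100b, another astrocyte marker, 177 genes were higher and 408 lower.

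The antiviral effectors were the list with the most members above 2-fold. Of 58 listed genes 54 had a row, 34 entered, and 34 were higher with a median log2 ratio of 3.07. Of the 20 that did not enter, 17 had UMIs in the antiviral cells and 3 had none. Entry by other Müller glia alone took in 26, of which 26 were higher with a median of 2.87, while the median over all 11420 genes was -0.07. Summed over the list, the level was 6233, 1367, 7803 and 8097 CPM in antiviral cells of rolipram, BC11-38, bleached vehicle and unbleached vehicle, against 643, 492, 966 and 802 CPM in other Müller glia. Antiviral cells were above the other Müller glia in all 4 libraries, and the 4 BC11-38 cells stood below the antiviral cells of the other libraries. In those 4 cells 1 UMI equals 29.7 CPM, so each of their values for a gene rests on few UMIs.

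Isg15, a ubiquitin-like protein that is attached to other proteins during the interferon response, stood at 437, 0, 655 and 1191 CPM in antiviral cells of rolipram, BC11-38, bleached vehicle and unbleached vehicle, and at 9.94, 4.61, 13.5 and 9.42 CPM in other Müller glia. It was seen in 34 of 76, 0 of 4, 40 of 53 and 9 of 15 antiviral cells, and its mean log2 ratio was 5.52. Per cell its lowest, median and highest levels were 0, 0 and 34.3 per 10000 in rolipram and 0, 2.46 and 51.4 in bleached vehicle. Usp18, the protease that removes ISG15, stood at 166, 0, 131 and 187 CPM in antiviral and 1.93, 1.70, 3.66 and 1.77 CPM in other Müller glia, with a mean log2 ratio of 5.74. Bst2, or tetherin, holds budding virus at the cell surface, and stood at 651, 29.7, 1053 and 1280 CPM in antiviral and 26.9, 14.3, 112 and 51.5 CPM in other Müller glia. Oasl2, of the oligoadenylate synthetase family, stood at 603, 149, 604 and 463 CPM in antiviral and 44.2, 21.1, 48.1 and 43.3 CPM in other Müller glia. Both were higher in the antiviral cells of every library, though Bst2 rested on 1 UMI in 1 of the 4 BC11-38 cells. Mean log2 ratios were 3.91 for Bst2 and 3.71 for Oasl2.

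By fold, the 20 highest genes after the rule genes were Ifi44, Trim30a, Iigp1, Isg20, Ifi44l, Usp18, Ifi203, Rtp4, Isg15, Zbp1, Ifit3b, Lgals9, Irf7, Cxcl10, Gbp5, Gbp3, Cmpk2, Cd274, Bst2 and Gbp2b. Of these 18 were on a list of interferon-linked genes and Cd274 and Gbp2b were on none. All 20 of the 20 were higher in the antiviral cells of the unbleached library as well, which the ranking did not use, and 4 of 20 in BC11-38. The same rule chose those cells, 15 in unbleached vehicle and 4 in BC11-38, so these counts are descriptions. The share of all genes that were higher there was not taken. Ifi44 ranked first with a mean log2 ratio of 6.95, and stood at 49.5, 0, 135 and 78.8 CPM in antiviral and 0.445, 0, 0.700 and 0 CPM in other Müller glia. Trim30a, a regulator of Toll-like receptor signals in mouse, had a mean log2 ratio of 6.68 and stood at 105, 0, 131 and 172 CPM in antiviral and 0.445, 0, 2.21 and 1.77 CPM in other Müller glia. Some of these rested on few cells. Ifi203 was seen in 1 antiviral cell of rolipram and 1 of unbleached vehicle, and 52.3% of its UMIs in bleached vehicle were in 1 cell. Cmpk2, a mitochondrial nucleotide kinase whose gene is the neighbour of Rsad2 on chromosome 12, stood at 237, 59.5, 252 and 177 CPM in antiviral and 20.2, 23.8, 11.5 and 15.7 CPM in other Müller glia, higher in the antiviral cells of all 4 libraries. Cd274, or PD-L1, the ligand of an inhibitory receptor on T cells, stood at 39.6, 0, 65.5 and 68.9 CPM in antiviral and 2.97, 1.45, 3.28 and 2.32 CPM in other Müller glia.

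**Figure D3:**
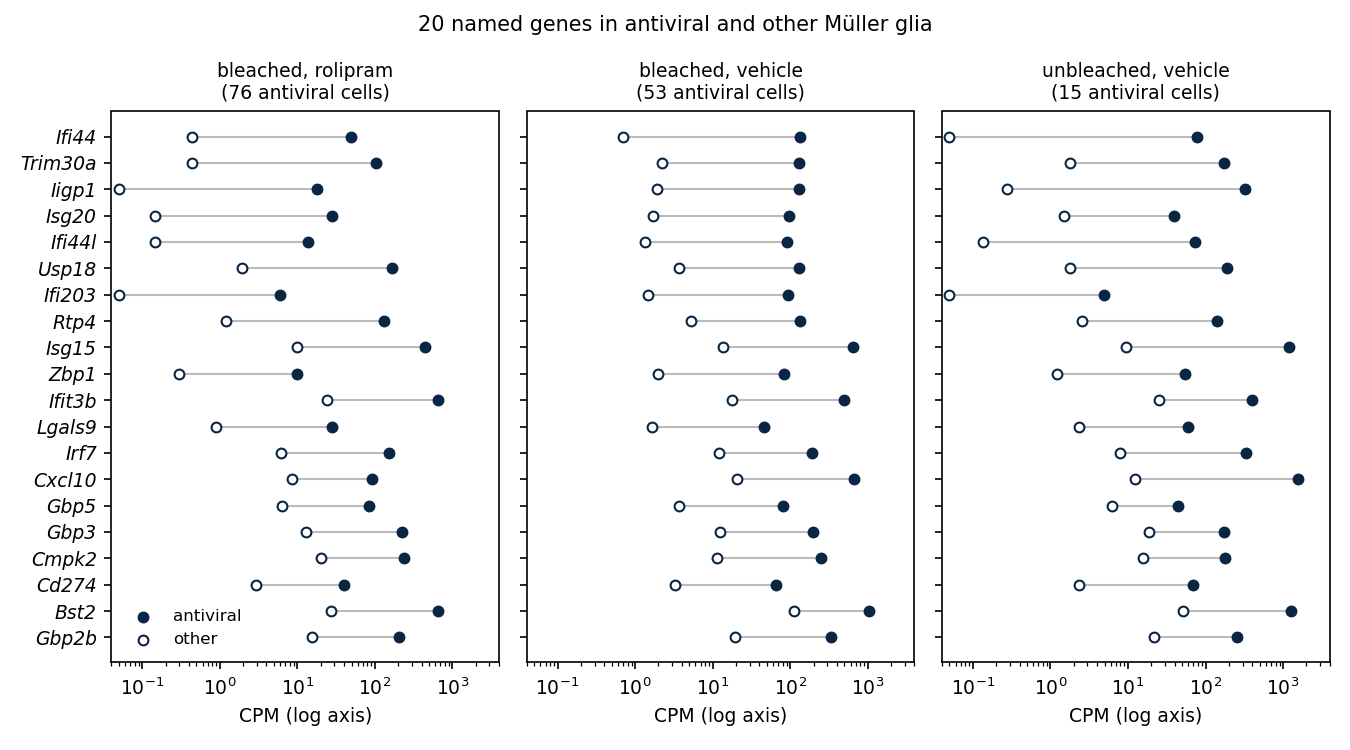
Levels of the 20 genes with the highest ratios (CPM, log axis) in antiviral (filled) and other (open) Müller glia of the rolipram, bleached vehicle and unbleached vehicle libraries, with a level of 0 drawn at 0.05 CPM. The filled point lies right of the open point for all 20 genes in each of the 3 libraries.

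The sensors of foreign nucleic acid that entered were higher, while Mavs, an adaptor on the same list, was not. All 10 listed genes had a row, 6 entered with Mavs among them and 5 of these were higher, and by other Müller glia alone 4 of 5 were. Of the 4 that did not enter, 2 had UMIs in the antiviral cells and Cgas and Aim2 had none. Ifih1, or MDA5, a sensor of long double-stranded RNA, stood at 176, 29.7, 130 and 133 CPM in antiviral cells of rolipram, BC11-38, bleached vehicle and unbleached vehicle, and 21.2, 13.6, 16.7 and 16.5 CPM in other Müller glia. Ddx58, or RIG-I, a sensor of RNA with a triphosphate end, stood at 178, 89.2, 107 and 158 CPM in antiviral and 19.7, 11.6, 21.3 and 16.4 CPM in other Müller glia. Mavs, the mitochondrial adaptor of both, stood at 19.8, 0, 15.04 and 0 CPM in antiviral and 15.1, 14.1, 16.0 and 12.3 CPM in other Müller glia.

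Several transcription factors of the pathway were higher in the antiviral cells. Of 10 listed, 8 entered and 5 were higher with either entry rule, Stat2, Irf9, Irf7 and Irf1 among them. Irf7, which amplifies interferon genes, stood at 152, 89.2, 193 and 330 CPM in antiviral cells of rolipram, BC11-38, bleached vehicle and unbleached vehicle, and 6.23, 3.15, 11.9 and 7.92 CPM in other Müller glia. Irf9 stood at 176, 149, 105 and 108 CPM in antiviral and 35.01, 17.9, 36.4 and 33.2 CPM in other Müller glia. Mean log2 ratios were 4.30 for Irf7, 2.38 for Stat2, 1.93 for Irf9 and 1.74 for Irf1, and each of these was above the other Müller glia in all 4 libraries. Stat2 was seen in 1 of the 4 BC11-38 cells. Irf3, which starts interferon transcription when phosphorylated, and Stat3, which serves other cytokines, had 0.10 and 0.13.

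Receptors and kinases stood near the other Müller glia. Of 11 listed genes 10 entered, and 1 was higher with a list median of -0.05. That gene was Socs1, an inhibitor of JAK kinases that interferon induces, at 41.5, 59.5, 27.9 and 14.8 CPM in antiviral and 8.46, 8.97, 14.5 and 10.2 CPM in other Müller glia. Ifnar1, Ifnar2, Ifngr1 and Jak1 had mean log2 ratios of -0.57, -0.04, -0.17 and 0.02. Interferon genes themselves could not be followed, as 0 of the 9 listed had a row in the table used here.

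Interferon-induced GTPases, which attack the vacuoles of intracellular parasites and bacteria, were higher. Of 17 listed 15 had a row, 9 entered and 9 were higher with a median log2 ratio of 3.55, and by other Müller glia alone 7 of 7 were. The 6 that did not enter all had UMIs in the antiviral cells. Gbp7, a guanylate-binding protein, stood at 429, 89.2, 415 and 310 CPM in antiviral cells of rolipram, BC11-38, bleached vehicle and unbleached vehicle, and 39.8, 37.1, 33.6 and 44.9 CPM in other Müller glia. Irgm1, an immunity-related GTPase, stood at 152, 29.7, 143 and 207 CPM in antiviral and 13.4, 13.1, 15.6 and 18.2 CPM in other Müller glia. Both were higher in the antiviral cells of all 4 libraries, though Irgm1 rested on 1 UMI in 1 of the 4 BC11-38 cells.

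MHC class I transcripts, for the presentation of peptides to CD8 T cells, were higher by smaller folds. All 20 listed had a row, 18 entered and 15 were higher with a median of 1.92, with either entry rule, and the other 2 had UMIs in the antiviral cells. B2m, the common light chain, stood at 679, 89.2, 1187 and 1373 CPM in antiviral cells of rolipram, BC11-38, bleached vehicle and unbleached vehicle, and 145, 103, 372 and 259 CPM in other Müller glia. H2-K1, a classical heavy chain, stood at 368, 29.7, 752 and 1132 CPM in antiviral and 150, 105, 302 and 237 CPM in other Müller glia. In BC11-38 both were lower in the 4 antiviral cells than in the other Müller glia. The peptide transporter gene Tap1 and the immunoproteasome gene Psmb8 had mean log2 ratios of 3.40 and 2.71. Of the 5 MHC class II genes 0 entered, 3 had UMIs in the antiviral cells and 2 had none, and their summed level was 5.93, 0, 6.44 and 4.92 CPM in antiviral and 2.08, 1.70, 8.77 and 2.05 CPM in other Müller glia.

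**Figure D4:**
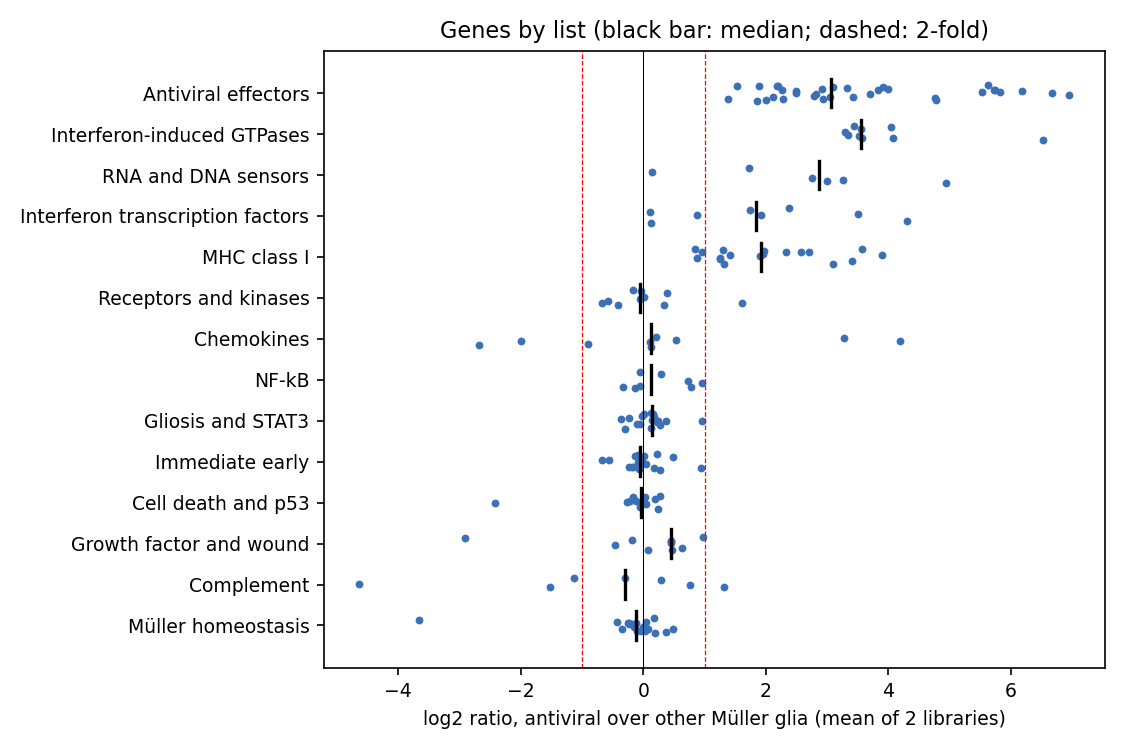
Mean log2 ratio of antiviral over other Müller glia in the rolipram and bleached vehicle libraries for each gene that entered (points), by gene list, with list medians (black bars) and the 2-fold lines (dashed). Antiviral effectors, GTPases, sensors and MHC class I lie mostly right of the 2-fold line, with medians of 3.07, 3.55, 2.88 and 1.92, while receptors, gliosis, immediate early and Müller homeostasis genes lie around 0.

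Cxcl10 and Ccl5 were held by few of the antiviral cells. Cxcl10, the chemokine that draws CXCR3-bearing T cells, stood at 91.0, 0, 673 and 1560 CPM in antiviral cells of rolipram, BC11-38, bleached vehicle and unbleached vehicle, against 8.60, 0.485, 20.8 and 12.4 CPM in other Müller glia. It was seen in 4 of 76, 0 of 4, 9 of 53 and 3 of 15 antiviral cells, and 1 cell held 30 of 46 UMIs in rolipram, 449 of 627 in bleached vehicle and 292 of 317 in unbleached vehicle. All 4 of these cells in rolipram, all 9 in bleached vehicle and 2 of the 3 in unbleached vehicle had all 3 rule genes. Ccl5, which draws T cells and monocytes, was seen in 1, 0, 3 and 2 antiviral cells. Of 12 listed chemokine genes 10 had a row, 9 entered, 2 were higher (Cxcl10 and Ccl5) and 1, the monocyte chemokine Ccl12, was lower.

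Müller function, gliosis and early response genes stood close to the other Müller glia. Of 20 homeostasis genes 20 entered, 0 were higher and 1 was lower, with a median of -0.11. That gene was Rgr, a retinal opsin, with 2 UMIs in antiviral cells of rolipram and 0 in bleached vehicle. Glul, the glutamine synthetase, stood at 6492, 10821, 1038 and 3318 CPM in antiviral cells of rolipram, BC11-38, bleached vehicle and unbleached vehicle, and 8777, 10830, 1231 and 4071 CPM in other Müller glia. Its level thus followed the library far more than the antiviral state. Of 19 gliosis and STAT3 genes that entered of 20, 0 were past 2-fold in either direction, with a median of 0.14. Gfap is the intermediate filament of reactive glia. It stood at 489, 29.7, 918 and 4105 CPM in antiviral and 377, 30.8, 865 and 672 CPM in other Müller glia. Its summed level thus stood apart in the unbleached library alone, where the summed astrocyte list was also high. Gfap was seen there in 9 of 15 antiviral cells, with a median of 2.10 and a highest value of 129.5 on the per-cell scale of the cut. In rolipram 26 of 76 antiviral cells held Gfap, and 1 cell had 64.0% of its UMIs. In bleached vehicle 43 of 53 held it, and 1 cell had 42.1%. Of 18 immediate early genes 18 entered and 0 were past 2-fold, with a median of -0.05. The remaining lists had few members past 2-fold. NF-kB genes had 0 of 8 entered, cell death and p53 genes 0 higher and 1 lower of 12, growth factor genes 0 higher and 1 lower of 10, and complement genes 1 higher and 2 lower of 7.

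The 10 lowest genes rested on few UMIs. They were Calb1, Crhbp, Tfap2b, Cartpt, Arpp21, Pcdhb5, Tagln, Cnbd2, Zfp101 and C1qb. Calb1, a calcium-binding protein of horizontal and amacrine cells, had 0 UMIs in antiviral cells of rolipram and bleached vehicle where 28.2 were expected at the level of the other Müller glia. Cartpt, a neuropeptide precursor, had 1 where 39.9 were expected. Tfap2b, an amacrine transcription factor, had 0 where 13.8 were expected. The direction of Pcdhb5, Tagln and C1qb turned with another way of calling the cells, with values given further below.

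The antiviral cells of rolipram and those of bleached vehicle differed by 2-fold or more in many genes. Of 8002 genes with at least 20 UMIs over both, 674 were at least 2-fold higher in rolipram (8.42%) and 598 at least 2-fold lower (7.47%). With TMM scaling (trimmed mean of the gene ratios), 454 were higher and 801 lower, so the split depends on the scaling. The rule genes chose the cells in both libraries, so their levels are only described. Rsad2 stood at 1161 CPM in rolipram and 1224 CPM in bleached vehicle, where 49.0% of its UMIs were in 1 cell. Ifit1 stood at 1306 CPM in rolipram and 641 CPM in bleached vehicle, and Ifit3 at 1867 CPM in rolipram and 1636 CPM in bleached vehicle. The effector list had a median log2 ratio of -0.09 in the antiviral cells, with 2 genes higher and 7 lower of 39, and of -0.41 in the other Müller glia.

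Growth factor and wound genes had the list median farthest from 0 between these libraries, and they also differed in the Müller glia below the cut. Their median log2 ratio of rolipram over bleached vehicle was -3.06 in antiviral cells and -4.28 in other Müller glia. Chemokines came next with -1.02 in antiviral cells, against -0.23 in other Müller glia, and several of them rested on single cells. Cell death and p53 genes had -0.89 in antiviral and -1.15 in other Müller glia, and Müller homeostasis genes 0.85 and 0.59 in these kinds of cell. MHC class I genes had -0.75 in antiviral and -0.68 in other Müller glia, and gliosis genes -0.57 and -1.01. Glul, a homeostasis gene that encodes glutamine synthetase, was 6.25-fold higher in rolipram in antiviral cells (6492 against 1038 CPM). Whether the difference between libraries depends on the antiviral state was not tested. Over all genes compared the median was 0.04 in antiviral and 0.02 in other Müller glia.

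The 5 genes highest in rolipram over bleached vehicle were Xist, Gm10800, Tsix, Etnppl and Pde6b. Xist had 392 UMIs in the antiviral cells of rolipram and 0 in those of bleached vehicle, at least 241-fold higher with 3 counts in place of 0, and its antisense partner Tsix had 32 and 1, so the sex make-up of the libraries is visible in the antiviral cells. Pde6b, a rod phosphodiesterase subunit, had 43 and 7 UMIs, a ratio of 10.4 (5.05 to 29.8), beside rod markers that summed to 2220 CPM in antiviral cells of rolipram and 625 CPM in those of bleached vehicle, and their part in it was not tested. The 5 lowest were Ccl2, Cxcl2, Ccl7, Tm4sf1 and Litaf, all with 0 UMIs in rolipram. Ccl2, the monocyte chemokine, had 241 UMIs in bleached vehicle, at least 43.6-fold lower in rolipram, but 213 of them were in 1 cell. Cxcl2, a neutrophil chemokine, had 83, all of them in 1 cell, and Ccl7, a monocyte chemokine, had 42, with 41 in 1 cell. Litaf, an endosomal protein, was the gene spread over cells, with 25 UMIs in 21 antiviral cells of bleached vehicle and none above 2 per cell. It was at least 4.52-fold lower in rolipram.

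Over all Müller glia, without any cut, the summed level of the 3 rule genes was 361 CPM in rolipram (exact Poisson interval 347 to 375.3), 52.4 CPM in BC11-38 (45.7 to 59.9), 213 CPM in bleached vehicle (207 to 220) and 142 CPM in unbleached vehicle (133 to 151). Rolipram was 1.69-fold higher than bleached vehicle (1.61 to 1.78), BC11-38 was 4.07-fold lower than bleached vehicle (3.55 to 4.68), and bleached vehicle was 1.504-fold higher than unbleached vehicle (1.41 to 1.61). These intervals count UMIs as independent and hold no spread between cells. The antiviral cell with the most held 343 of the 2617 UMIs in rolipram, 8 of 218 in BC11-38, 808 of 4161 in bleached vehicle and 266 of 1068 in unbleached vehicle. In the Müller glia below the cut the levels lay closer, at 63.2, 46.3, 48.5 and 47.2 CPM in rolipram, BC11-38, bleached vehicle and unbleached vehicle. There the ratio was 0.955 (0.812 to 1.12) for BC11-38 over bleached vehicle, 1.03 (0.906 to 1.17) for bleached over unbleached vehicle and 1.30 (1.16 to 1.46) for rolipram over bleached vehicle. The cut itself lowers the levels below it. With 1 pool of 2 mice per group, the treatment and the mice cannot be told apart.

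Sex transcripts, which the rule did not use, divided the antiviral cells of the rolipram library unevenly. Of its Müller glia in which Y-linked transcripts but not Xist were seen (Y-only cells), 30 of 363 were antiviral (8.26%, exact interval 5.65 to 11.6%), against 21 of 544 in which Xist alone was seen (3.86%, 2.41 to 5.84%). The intervals overlapped narrowly. In BC11-38 the shares were 0.930% (2 of 215) and 0.707% (2 of 283), and in unbleached vehicle 1.86% (4 of 215) and 1.37% (3 of 219), with intervals that overlapped widely. In bleached vehicle 44 of 954 Y-only cells were antiviral (4.61%, 3.37 to 6.14%), and 1 Müller cell had Xist alone. Among Y-only cells, the summed level of the 3 genes was 553, 46.3, 209 and 65.9 CPM in rolipram, BC11-38, bleached vehicle and unbleached vehicle. Rolipram was then 2.64-fold higher than bleached vehicle (2.48 to 2.81), BC11-38 4.52-fold lower (3.58 to 5.78), and bleached vehicle 3.18-fold higher than unbleached vehicle (2.79 to 3.63). The directions of all Müller glia were thus the same within Y-only cells. Cells with Xist alone stood at 261, 55.1 and 142 CPM in rolipram, BC11-38 and unbleached vehicle. They lay below the Y-only cells in rolipram and above them in BC11-38 and unbleached vehicle. The 3.18-fold ratio thus leaves out the higher of these kinds of cell in unbleached vehicle. Bleached vehicle had 1 cell with Xist alone, so no ratio to it was taken in such cells. With 2 mice per library sex and animal cannot be told apart.

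The 3 rule genes were also held by endothelium, pericytes and a small share of other classes. Outside the Müller gate, cells were assigned to a class by their markers, and the same cut was passed by 38.1% of 84 endothelial cells in rolipram, 25% of 48 in BC11-38, 26.8% of 82 in bleached vehicle and 27.9% of 43 in unbleached vehicle. The summed level of the 3 genes in endothelium was 569, 383, 424 and 356 CPM in these libraries, so BC11-38 did not stand apart there as it did in Müller glia. The ratio of BC11-38 over bleached vehicle was 0.246 (0.213 to 0.282) in all Müller glia, against 0.904 (0.759 to 1.07) in endothelium. These intervals did not overlap, but they hold no spread between cells, and the difference between the classes was not tested. Pericytes had 222, 184, 146 and 156 CPM from 51, 36, 25 and 13 cells, of which 9.80%, 5.56%, 12% and 0% passed the cut, so BC11-38 did not stand below the other libraries there either. Microglia had 13.5 CPM in rolipram, 93.9 CPM in bleached vehicle and 6.36 CPM in unbleached vehicle, from 33, 36 and 13 cells, and 0 cells were assigned to them in BC11-38. Rods passed the cut in 0.262%, 0.321%, 2.16% and 0.331%, with summed levels of 1.79, 2.69, 45.6 and 13.1 CPM, and bipolar cells had 16.5, 13.0, 23.2 and 15.2 CPM. Amacrine cells had 6.02, 4.23, 5.21 and 17.3 CPM.

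**Figure D5:**
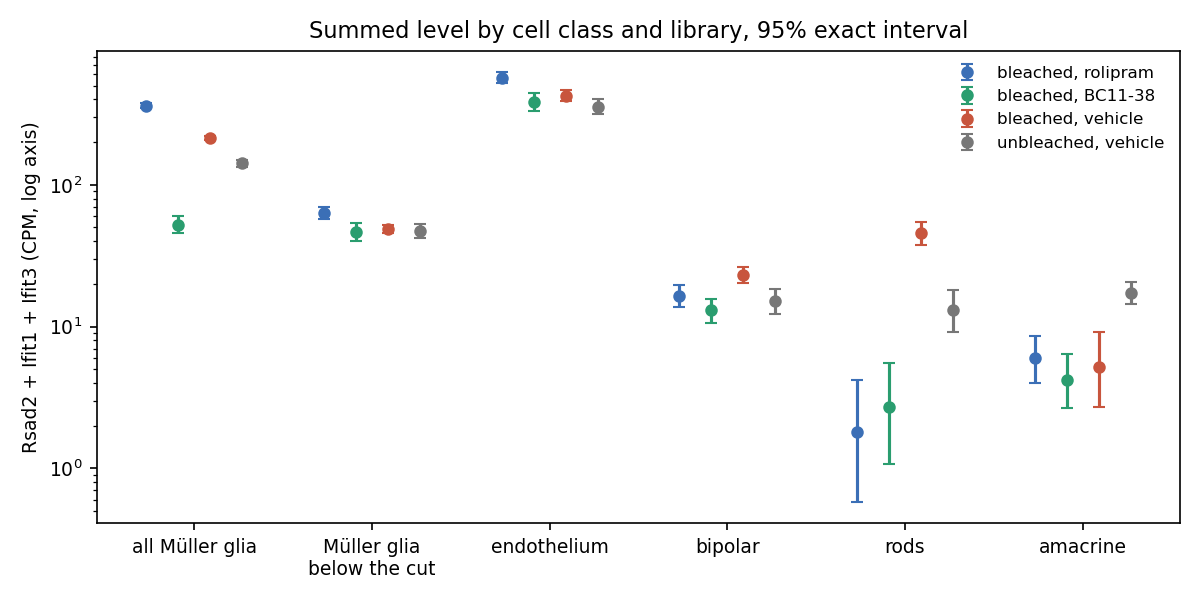
Summed level of Rsad2, Ifit1 and Ifit3 (CPM, log axis) by cell class and library, points with exact 95% Poisson intervals. BC11-38 lies at 52.4 CPM in all Müller glia, below 142 to 361 CPM in the other libraries, and at 383 CPM in endothelium, within the spread of the other libraries.

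At least 1 UMI of the 3 genes was seen in 28.7%, 26.6%, 41.7% and 38.2% of the Müller glia below the cut in rolipram, BC11-38, bleached vehicle and unbleached vehicle. The same share was 3.21%, 2.45%, 3.26% and 5.29% in amacrine cells, and how much of it was free RNA was not tested. Their median depths were 6232, 7524.5, 7519 and 9190 UMIs, which are above the depths of those Müller glia in the drug libraries and below them in the vehicle libraries. Rods had 0.262%, 0.450%, 2.35% and 0.397% at medians of 1245, 1490, 1392 and 1571.5 UMIs. Rsad2 made up 26.8%, 29.6%, 34.97% and 18.1% of the UMIs of the 3 genes in antiviral Müller glia, which were chosen on them, and 2.82%, 3.66%, 12.4% and 4.91% in the Müller glia below the cut. In the unselected classes it made up 17.6%, 22.8%, 29.2% and 10.7% in endothelium and 3.05%, 1.94%, 8.64% and 0% in bipolar cells.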

How the data were processed

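Papain-dissociated retinal cells were captured with the 10x Genomics v3 kit and sequenced on NovaSeq, per the labels' protocols, 1 library per group. The submitters' processing notes name mm10 as build, Seurat 3.2.2 and Cell Ranger 6.0.1, without saying what each was used for. Another drug named in the labels' protocols was not analysed here. The deposited values were natural log values of the authors, ln(1 + x) with x the UMIs of a gene per 10000 in that cell, per the file headers. The design had allowed for counts. Back-transformed values were whole multiples of 1 UMI per cell (100% of values within 0.001 of a whole number), which gave 140410160 UMIs, and all counts here are these recovered UMIs. There were 0 unused sample columns.

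The members and the gene lists were chosen with earlier results of these data known. UMIs were summed per library and kind of cell and scaled to the total. Log2 ratios used a prior of 0.5 UMIs, and a count of 0 was replaced by 3 for a bound. A gene counted as different at 2-fold, in the within-library contrast with the same direction in both libraries. Named genes are the rule genes, list members, the 20 highest and 10 lowest ratios, and the 5 highest and 5 lowest between libraries. Gene names come from the files. Other classes were cells outside the Müller gate with at least 3 panel markers seen, assigned to the panel highest relative to its mean over all cells, a rule chosen after the data were seen. No doublet caller was run; alternatives leave out cells with both Xist and Y-linked UMIs, or the Müller glia highest in rod markers. Intervals are exact at 95% and cover counting error only, and Poisson intervals of summed UMIs also hold no spread between cells. Cells with fewer than 2000 UMIs were left out of thinned values. Tools were python 3.11.15, numpy 2.4.6, scipy 1.17.1, pandas 2.3.3 and matplotlib 3.10.9. The ratios were tested on simulated Poisson sums without spread between cells. That test therefore does not bear on genes whose UMIs lie in few cells.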

Additional observations from a re-analysis of the deposited data

Results flagged for a closer look

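The summed level of Rsad2, Ifit1 and Ifit3 moved in opposite directions in different cell classes of the same libraries, as ratios of single libraries. Rolipram over bleached vehicle was 1.69 in all Müller glia, 0.0393 in rods and 0.712 in bipolar cells. In rods it rests on 5 UMIs in rolipram and 110 in bleached vehicle (exact interval 0.0125 to 0.0945). Bleached vehicle over unbleached vehicle was 1.504 in all Müller glia and 0.302 in amacrine cells, where it rests on 12 UMIs in bleached vehicle and 130 in unbleached vehicle. With 1 library per group these differences between classes were not tested.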

How the results depend on the processing

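No paired analysis was possible because each group had 1 library. For the share of antiviral cells, values follow for rolipram, BC11-38, bleached vehicle and unbleached vehicle. A cut of 3 per 10000 gave 11.4%, 3.05%, 6.91% and 4.65%, at least 2 UMIs of the 3 genes 12.4%, 5.93%, 21.9% and 17.1%, and thinning to 2000 UMIs with at least 1 UMI 16.4%, 10.3%, 14.8% and 11.6%. A cut of 10 gave 4.17% in rolipram and 3.28% in bleached vehicle, at least 2 of the 3 genes 10.9% in bleached and 5.02% in unbleached vehicle, all 3 genes 3.32% in rolipram and 0% in BC11-38 (up to 0.623%), and Y-only cells 8.26% in rolipram. Genes higher and lower in antiviral cells were 470 and 3295 without a filter and 92 and 63 with at least 20 expected UMIs, where fewer genes entered, and 271 were higher with at least 2 UMIs of the 3 genes. With rolipram or bleached vehicle left out, 175 to 182 genes were higher and 390 to 399 lower. Between libraries, at least 50 UMIs gave 299 higher and 297 lower. TMM scaling gave ratios over all Müller glia of 1.46 for rolipram and 0.212 for BC11-38 over bleached vehicle, and Y-only cells 2.64 for rolipram over bleached vehicle and 3.18 for bleached over unbleached vehicle. With at least 2 UMIs of the 3 genes, log2 ratios of Pcdhb5, Tagln and C1qb turned to 0.40, 0.79 and 1.71; the cause was not tested. Over all alternatives of the contrast with other Müller glia, log2 ratios of rule and top genes lay within 0.5 of the reported value in 267 instances and not in 55, list medians in 105 and not in 7. Those of the 10 lowest genes lay within 0.5 in 91, farther off in 46 and turned in the 3 above. Depth limits genes with under 20 expected UMIs and every value of the 4 BC11-38 cells.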
